A study of Mus musculus with 9 samples.

Results

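The comparison described here set the cortex of mice given a high dose of adeno-associated virus (AAV) against the cortex of mice given a low dose, by bulk RNA sequencing. Its members were the 3 HighDose and the 3 LowDose libraries, 6 of the 9 libraries of the series, chosen by their labels. All 1710 genes of the deposited table entered. The other 3 libraries, injected with PBS, served only as the reference level. All mice were wild type (WT), the tissue label was brain ctx, the injection was stereotaxic, and the tissue at the centre of the injected site was taken 10 days later, after infusion of ice-cold artificial cerebrospinal fluid. The injection protocol of the labels covers every group, PBS included. The vector amounts behind the dose names were not used here. Nothing in the labels says whether the replicates came from separate animals, so the errors and p-values below measure the spread between libraries. In bulk tissue, fewer cells of a type and less RNA per cell cannot be told apart.

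AAV vectors carry a DNA genome. Cytosolic DNA is bound by cGAS, which makes a cyclic dinucleotide that switches on STING, and STING in turn recruits kinases that activate the transcription factors IRF3 and NF-kB and start the production of type I interferon. Interferon acts through its receptor on promoters that hold an interferon-stimulated response element (ISRE), and so raises many antiviral and antigen-presenting genes in microglia, astrocytes, endothelium and neurons.

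The core of the ISRE was searched as GAAA, any 2 bases and GAAA again, on both strands of the promoter window from 250 bases before to 50 bases after the start of each gene (RefSeq, build GRCm38.p6). The stretches below belong to strongly raised genes of the comparison that hold a match, and show how the element sits in these. Other strongly raised genes held no match in this window, among them Klrk1, Slfn4, Ms4a4c, Rnf213 and Irf7. Capitals mark the bases covered by a match, on either strand, and each stretch reads along the strand of its gene. Isg15 held 3 overlapping matches, Ifit1 and Oas1b 2 each, and the others 1 each. The stretches lie at chr4:156200860-156200911 (Isg15, - strand), chr19:34640770-34640828 (Ifit1, + strand), chr5:120887601-120887646 (Oas1b, - strand), chr5:92349078-92349117 (Cxcl10, - strand), chr3:142620589-142620628 (Gbp2, + strand) and chr2:122147533-122147572 (B2m, + strand).
Isg15: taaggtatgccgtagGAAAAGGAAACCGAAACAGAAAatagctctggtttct
Ifit1: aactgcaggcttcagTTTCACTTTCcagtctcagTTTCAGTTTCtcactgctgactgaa
Oas1b: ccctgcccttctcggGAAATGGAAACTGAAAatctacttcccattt
Cxcl10: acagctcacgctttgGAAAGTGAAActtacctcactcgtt
Gbp2: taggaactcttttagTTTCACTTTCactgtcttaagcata
B2m: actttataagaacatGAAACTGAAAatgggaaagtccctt
A match is a description of the letters and not evidence that a factor was bound there.

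The table held a selection of genes and not a transcriptome. Counts of list members below speak only for the members that were listed. For every one of the 1710 genes some pair of the 3 groups stood 2-fold or more apart in mean FPKM, and for 1508 of them HighDose and LowDose were such a pair, so a high share of differing genes was built into the list. Library totals, recovered from the ratio of count to FPKM, ran from 18344100 to 23725600 counts over the 9 libraries. The listed genes took 1.36% ± 0.0206 (SD, n = 3) of the total in LowDose, 1.57% ± 0.0377 in PBS and 5.05% ± 1.08 in HighDose. Values below are CPM (each count scaled by the recovered total of its library), given in the order of replicates 1, 2 and 3. Differences are log2(HighDose/LowDose) with the standard error (SE) and the Benjamini-Hochberg adjusted p of edgeR's quasi-likelihood test over all 1583 genes that passed the filter on low counts.

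Nearly the whole list stood higher at the high dose. Of the 1583 tested genes, 1394 (88.1%) were higher and 112 (7.08%) lower in HighDose than in LowDose, and 77 did not pass the test. The median difference over all tested genes was 1.88. Fitted differences of at least 10-fold were found for 408 of the higher genes, of at least 50-fold for 164 and of at least 100-fold for 79, whereas 57 of the 112 lower genes reached 2-fold. All HighDose libraries lay above all LowDose libraries for 1370 genes (86.5%) and below them for 100 (6.32%). The split into higher and lower genes rested on the recovered library totals: of the genes called, 92.6% were higher with these totals, against 53% with TMM factors, 56.4% with DESeq2 size factors and 50% with the sum of the listed counts, and these scalings moved the median of all genes by -1.80, -1.71 and -1.88. All 112 lower genes were also lower under those 3 scalings. That follows from the downward shift itself, so it is no check on the lower calls. List medians below are therefore set against the 1.88 of all tested genes. Where a count of list members called under the other scalings is given, the order is TMM, size factors and listed sum. In that order 554, 576 and 524 of all 1583 tested genes were higher and 491, 445 and 524 lower. The medians of all tested genes were 0.08, 0.17 and -0.002. The list counts and medians under those scalings are to be read beside these.

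**Figure D1:**
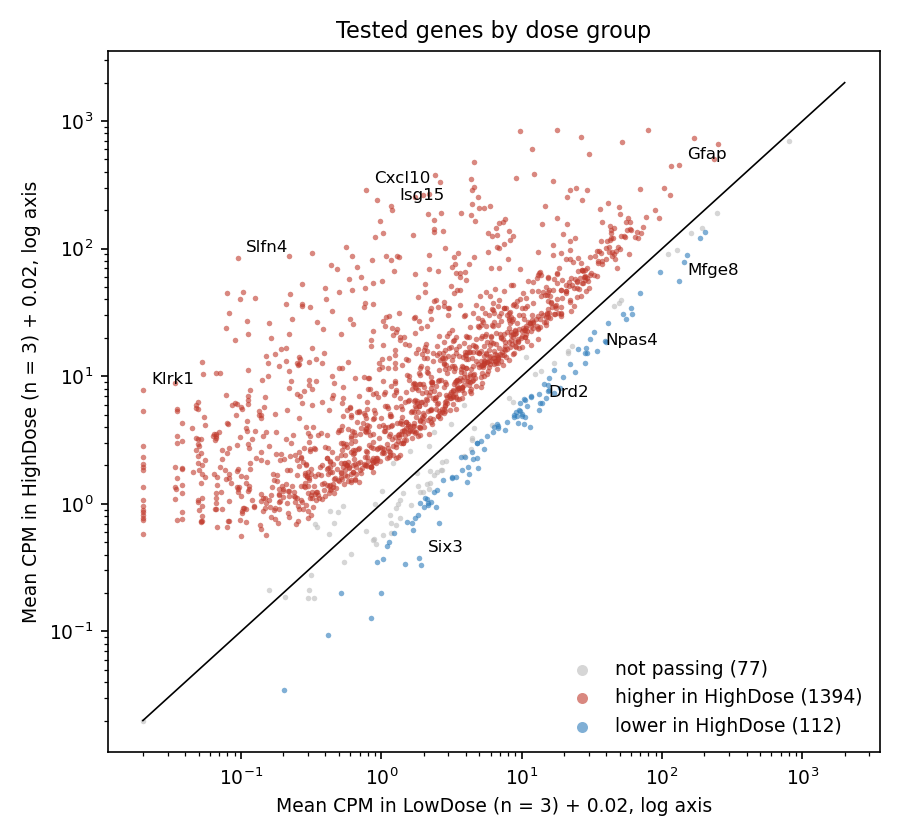
Mean CPM of each tested gene over the 3 LowDose libraries (x axis) and the 3 HighDose libraries (y axis), both plus 0.02 and on log scales, with 1 point per gene coloured by its call in edgeR's quasi-likelihood test and a line at equal levels. The 1394 genes called higher fill the region above the diagonal, and the 112 called lower stay close beneath it, at a median log2 difference of -1.0.

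Against the PBS level few of these genes were called at the low dose. In the same model 1366 genes (86.3%) were higher and 169 (10.7%) lower in HighDose than in PBS, whereas 7 (0.442%) were higher and 34 (2.15%) lower in LowDose than in PBS. With the replicate number as a block the LowDose counts were 12 higher and 50 lower. The labels state no such pairing and the block was added after values were seen, so results with it are alternatives only. By mean FPKM alone, without a test, 287 of the 1710 listed genes stood 2-fold or more apart between LowDose and PBS. The 1394 genes raised at the high dose summed to 8948, 9277 and 9143 CPM in PBS, to 9077, 9505 and 9501 CPM in LowDose and to 35684, 49169 and 57767 CPM in HighDose. The LowDose sums overlapped the PBS sums. These genes were picked as higher in HighDose than in LowDose in the same libraries, so the higher HighDose sums follow from that choice. Of these genes, 1186 had LowDose libraries that overlapped the PBS libraries. The 112 lower genes summed to 3174, 3691 and 2955 CPM in PBS, 2394, 2181 and 1999 CPM in LowDose and 1444, 1260 and 981 CPM in HighDose, so that their LowDose level lay between the other groups. They were picked as lower in HighDose than in LowDose, so that part of the order follows from the choice.

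Sensors of foreign nucleic acid rose at the high dose. All 19 tested members of the DNA sensing list were higher, with a median log2 difference of 6.18, and all 12 of the RNA sensing list, with a median of 3.14. Under the other scalings 17, 17 and 16 of the DNA sensing genes and 9, 9 and 8 of the RNA sensing genes were higher. Cgas, the cytosolic DNA sensor itself, measured 0.843, 0.764 and 1.02 CPM in LowDose and 3.59, 4.54 and 7.24 CPM in HighDose (log2 difference 2.55, SE 0.37, adjusted p = 6.18e-08). Sting1, its downstream adaptor, measured 2.91, 3.51 and 4.22 CPM in LowDose and 14.1, 18.8 and 18.5 CPM in HighDose (log2 difference 2.27, SE 0.26, adjusted p = 1.55e-10). Neither gene's dose groups overlapped, and both changes were modest within their list. Zbp1, a sensor of Z-form nucleic acid, went from 0.126, 0.405 and 0.374 CPM to 70.1, 93.7 and 114 CPM (log2 difference 8.27, SE 0.35, adjusted p = 9.32e-24). Aim2, which builds an inflammasome on DNA, had the smallest difference of the DNA sensing list and was chosen after its values were seen, with 1.39, 1.17 and 1.23 CPM in LowDose against 3.37, 4.02 and 5.5 CPM in HighDose (log2 difference 1.76, SE 0.35, adjusted p = 1.57e-05). The interferon-inducible PYHIN genes around Aim2 were the large movers, and Ifi205 differed by 8.92 (SE 0.46, adjusted p = 1.35e-21), but its deposited counts were not whole in 7 libraries, as in gene families whose reads match several copies, and its level is uncertain for that reason.

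The RNA sensors and the Toll-like receptors moved in the same direction. Rigi, which binds short double-stranded RNA, measured 3.96, 6.02 and 4.65 CPM in LowDose and 172, 269 and 322 CPM in HighDose (log2 difference 5.70, SE 0.28, adjusted p = 2.06e-22). Ifih1 (MDA5, the sensor of long double-stranded RNA) and Eif2ak2 (PKR, the kinase that halts translation) differed by 5.28 (SE 0.28, adjusted p = 2.26e-21) and 5.16 (SE 0.27, adjusted p = 2.21e-21). All HighDose libraries stood above all LowDose libraries for each of these 3 genes. In the Toll-like receptor list all 15 tested members were higher, with a median of 2.15, close to that of all tested genes. Under the other scalings 7, 8 and 6 of the 15 were higher and 1, 1 and 2 lower, with medians of 0.35, 0.43 and 0.26. Tlr9, the endosomal receptor for unmethylated DNA, measured 1.1, 2.11 and 1.82 CPM and 23.2, 27.7 and 34.7 CPM (log2 difference 4.09, SE 0.28, adjusted p = 3.19e-17). Tlr2, a receptor for lipoproteins, measured 1.01, 2.2 and 1.98 CPM and 15.7, 19.1 and 30.2 CPM (log2 difference 3.65, SE 0.31, adjusted p = 3.42e-14). Both groups were well apart for either receptor. Among inflammasome genes all 19 tested were higher (median 2.53), and 10, 11 and 10 under the other scalings. Nlrp3, whose product assembles an inflammasome, stayed low at 0.464, 0.584 and 0.481 CPM against 2.49, 2.63 and 3.73 CPM (log2 difference 2.52, SE 0.44, adjusted p = 1.79e-06), and the protease gene Casp1 differed by 2.44 (SE 0.30, adjusted p = 1.24e-09).

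Transcripts of Ifnb1 were scarce. Ifnb1, the type I interferon most cells make first, had 0 counts in all PBS and LowDose libraries and 0.831, 0.335 and 1.34 CPM in HighDose, 57 counts in all. With the limit of 3 counts over the LowDose group, HighDose was at least 18.4-fold higher. Ifnb1 was not among the genes tested, and an exact two-sided permutation test over the 6 libraries gave p = 0.1, the smallest that 3 against 3 libraries allow.

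Genes that interferon induces were abundant at the high dose. All 44 tested antiviral effectors were higher in HighDose, with a median log2 difference of 5.88 against 1.88 for all tested genes. Together they summed to 155.6, 163.4 and 152.1 CPM in LowDose, 150.6, 155.1 and 159.9 CPM in PBS and 4358, 6787 and 8289 CPM in HighDose. The LowDose libraries overlapped the PBS libraries, and HighDose stood far above both. Isg15, a ubiquitin-like protein conjugated to viral and host targets, measured 0.927, 2.52 and 1.2 CPM in PBS, 1.52, 1.3 and 0.641 CPM in LowDose and 149, 222 and 273 CPM in HighDose (log2 difference 7.51, SE 0.35, adjusted p = 4.08e-23). Usp18, which removes ISG15 and dampens interferon signalling, measured 0.801, 1.57 and 1.12 CPM against 143, 201 and 255 CPM (log2 difference 7.42, SE 0.32, adjusted p = 1.19e-23). Ifit1, which binds foreign RNA ends, measured 2.49, 2.83 and 1.82 CPM against 238, 408 and 495 CPM (log2 difference 7.31, SE 0.32, adjusted p = 1.19e-23). The promoters of Isg15 and Ifit1 are among those shown above. Rnf213, a giant ubiquitin ligase, had the largest rise in CPM of the comparison, from 17.6, 18.9 and 17.2 to 589, 965 and 1002 CPM (log2 difference 5.57, SE 0.27, adjusted p = 2.34e-22). For each of these genes HighDose replicate 1 was the lowest of the 3 HighDose libraries and still far above every LowDose library.

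**Figure D2:**
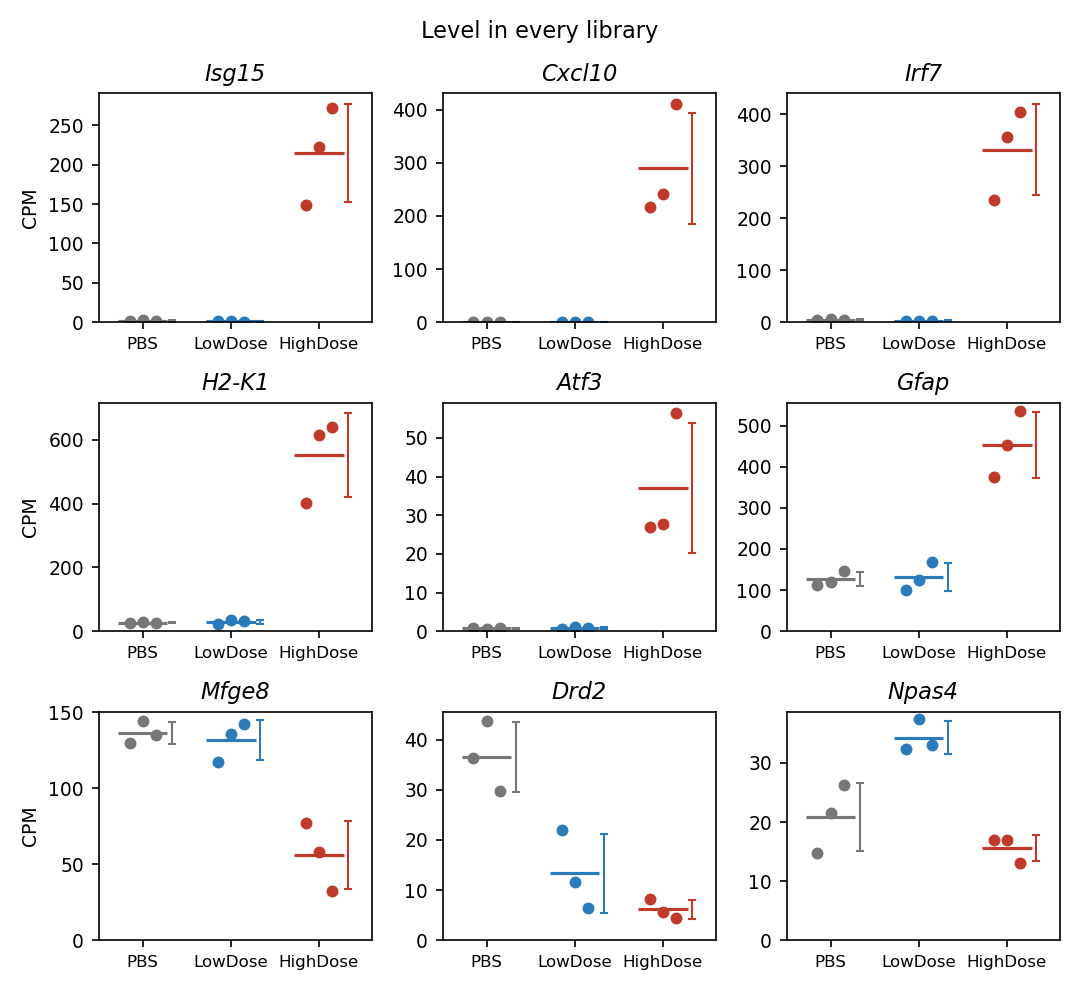
CPM (y axis, linear from 0) of 9 genes in the 3 PBS, 3 LowDose and 3 HighDose libraries, with 1 point per library, a line at the group mean and a bar for the SD beside it. Isg15 lies between 149 and 273 CPM in HighDose and under 3 CPM in all PBS and LowDose libraries, while Mfge8 falls from at least 117 CPM in LowDose to at most 77.0 CPM in HighDose.

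The signalling genes of the interferon response behaved alike. All 9 tested members of the interferon ligand and signalling list were higher (median 3.59), against 7 higher and 2 lower under each of the other scalings. Irf7, the transcription factor that amplifies type I interferon, measured 3.27, 5.76 and 4.52 CPM in PBS, 1.9, 3.01 and 2.94 CPM in LowDose and 235, 356 and 404 CPM in HighDose (log2 difference 6.99, SE 0.31, adjusted p = 1.19e-23). Its LowDose libraries lay below all PBS libraries, a difference of -0.80 that did not pass the test (adjusted p = 0.104) but passed with the replicate block (-0.78, adjusted p = 0.0182). Ifnar2, a chain of the type I interferon receptor and the smallest difference of the list, was named after its values were seen and differed by 0.74 (SE 0.22, adjusted p = 0.00172).

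The guanylate-binding proteins and immunity-related GTPases, which attack the vacuoles of intracellular microbes, had differences of a size like those of the antiviral effectors. All 18 tested members were higher, with a median of 6.14, and the smallest difference was 4.23 for Gvin1, named after its values were seen. Gbp2 measured 4, 5.39 and 3.69 CPM in LowDose and 274, 341 and 442 CPM in HighDose (log2 difference 6.33, SE 0.28, adjusted p = 1.19e-23). Tgtp1 was lower in LowDose than in PBS, at 1.57, 2.34 and 3.44 CPM in PBS, 1.09, 0.887 and 0.645 CPM in LowDose and 90.5, 119 and 158 CPM in HighDose (log2 difference 7.10, SE 0.32, adjusted p = 3.17e-23), and the LowDose difference from PBS of -1.47 passed the test (adjusted p = 0.00417). Its 3 groups did not overlap, but its counts were not whole in all 9 libraries and are uncertain.

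Antigen presentation was raised in both classes. All 23 tested genes of MHC class I presentation (median 3.60) and all 13 of class II (median 2.85) were higher in HighDose. Under the other scalings 21, 21 and 19 of the class I genes and 10, 10 and 9 of the class II genes were higher. The medians were then 1.80, 1.89 and 1.71 for class I and 1.06, 1.15 and 0.97 for class II. B2m, the light chain of every class I molecule, measured 68.5, 82.2 and 64.7 CPM in PBS, 74.6, 85.9 and 77.8 CPM in LowDose and 595, 974 and 973 CPM in HighDose (log2 difference 3.41, SE 0.24, adjusted p = 7.19e-17). H2-K1, a classical heavy chain, measured 23.1, 35 and 32 CPM against 400.4, 616 and 639 CPM (log2 difference 4.20, SE 0.25, adjusted p = 2.57e-19). The dose groups were separate for both genes, with LowDose near PBS. Cd74, the invariant chain that escorts class II, measured 5.06, 7.91 and 5.5 CPM against 85.1, 150.4 and 139.7 CPM (log2 difference 4.34, SE 0.27, adjusted p = 6.82e-19). Cd274 (PD-L1), the ligand that restrains T cells, measured 1.98, 2.25 and 2.14 CPM against 137, 181 and 242 CPM (log2 difference 6.46, SE 0.28, adjusted p = 1.19e-23), without overlap.

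Chemokines were near the floor at the low dose and abundant at the high dose. All 19 tested chemokines were higher, with a median of 5.13, and all 9 tested chemokine receptors, with a median of 4.53. Cxcl10, which draws CXCR3-bearing lymphocytes, measured 0.164, 0.872 and 0.323 CPM in PBS, 0.464, 0.989 and 0.801 CPM in LowDose and 217, 242 and 409.7 CPM in HighDose (log2 difference 8.59, SE 0.37, adjusted p = 1.19e-23). Ccl2, the ligand of CCR2 on monocytes, measured 0, 0.27 and 0.16 CPM against 14.5, 18 and 26.7 CPM (log2 difference 7.08, SE 0.45, adjusted p = 1.51e-18). Ccl5, a T cell attractant, measured 0.126, 0.225 and 0.214 CPM against 23.6, 38.7 and 47.7 CPM (log2 difference 7.58, SE 0.40, adjusted p = 2.25e-21). In LowDose the levels of Ccl2 and Ccl5 rested on a handful of counts. Of the cytokines and their brakes all 20 tested were higher (median 2.98), against 12 higher and 3 lower under each of the other scalings. Il1rn, the antagonist of the interleukin-1 receptor, went from 0.0421, 0.0899 and 0.0534 CPM to 28.6, 27.5 and 37.5 CPM (log2 difference 8.85, SE 0.44, adjusted p = 2.97e-22), which is 4 counts over the LowDose group against 2092 over HighDose.

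Markers of lymphocytes were higher at the high dose. All 22 tested T cell markers (median 5.07) and all 16 tested genes of cytotoxic effectors and NK cells were higher. The cytotoxic list had a median of 5.61, or 5.29 with its 3 genes at 0 LowDose counts set to their lower bound. Its summed level was 2.11 ± 0.776 CPM in LowDose, 1.66 ± 0.385 CPM in PBS and 77.1 ± 19.4 CPM in HighDose (SD, n = 3). Cd3e, part of the antigen receptor of T cells, gave 3 counts in LowDose and 106 in HighDose, a 34.2-fold ratio in CPM with a 95% exact counting interval of 11.4 to 168. Cd8a, the coreceptor of cytotoxic T cells, had 3 and 234 counts, a 75.5-fold ratio with an interval of 25.5 to 369. Both intervals cover counting error only. Gzmb, a granule protease of killer cells, measured 0.0843, 0.135 and 0.0534 CPM in LowDose and 22.4, 22.4 and 37.2 CPM in HighDose (log2 difference 8.12, SE 0.42, adjusted p = 2e-21). Klrk1 (NKG2D), an activating receptor of NK and CD8 T cells, had 0 counts in LowDose, 4 in PBS and 522 in HighDose, at least 168-fold higher than the limit of 3 counts over the LowDose group. B cell markers were few, with 9 of 16 listed and all 6 tested higher (median 3.24), of which 3 were higher under each of the other scalings.

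Phagocytes showed a mixed picture. All 24 tested genes of activated microglia and phagocytes were higher (median 2.90), as were all 5 tested Fc receptors (median 2.39). With the other scalings 14 of the 24 were higher and 6, 4 and 7 were lower, with medians of 1.10, 1.19 and 1.01, and of the Fc receptors 4 were higher and 1 lower. Aif1 (IBA1), a general marker of microglia and macrophages, measured 2.61, 3.1 and 2.08 CPM in LowDose and 11.6, 12.6 and 16.1 CPM in HighDose (log2 difference 2.36, SE 0.28, adjusted p = 4.68e-10). Cd68, a lysosomal marker, differed by 1.01 (SE 0.24, adjusted p = 0.000152), with 7.08, 10.1 and 12.5 CPM against 17.9, 19 and 22.8 CPM, and was lower instead under TMM, size-factor and listed-sum scaling. The dose groups of both genes were separate. Of the 16 homeostatic microglia markers 6 were listed, of which 3 were higher and 3 lower. Under the other scalings none was higher and 5, 5 and 6 were lower, with medians of -1.54, -1.45 and -1.62. P2ry12, the purinergic receptor of resting microglia, measured 39.6, 41.5 and 33.6 CPM in PBS, 37.3, 29.5 and 24.8 CPM in LowDose and 22.2, 19.9 and 16.3 CPM in HighDose (log2 difference -0.65, SE 0.22, adjusted p = 0.00554), with every HighDose library below every LowDose library. Without LowDose replicate 1 the P2ry12 call was lost, at a difference of -0.48 with adjusted p = 0.0628. Fcrls and Gpr34, further homeostatic markers that were named after their values were seen, differed by -1.15 (SE 0.23, adjusted p = 2.18e-05) and -0.92 (SE 0.25, adjusted p = 0.000678). Olfml3 and Selplg, of the same list, differed by 1.55 (SE 0.22, adjusted p = 2.62e-08) and 1.12 (SE 0.21, adjusted p = 9.11e-06). The third higher member was Tmem119, a membrane protein of resident microglia that was named after its values were seen, at 18.8, 20.1 and 23.2 CPM in LowDose and 41.5, 49.6 and 44.2 CPM in HighDose (log2 difference 1.12, SE 0.22, adjusted p = 9.32e-06). All 3 turned to the lower side under the other scalings. Slfn4 and Ly6c2, both expressed by monocytes, rose by 9.99 (SE 0.44, adjusted p = 1.23e-23) and 8.72 (SE 0.37, adjusted p = 9.32e-24), the second with counts that were not whole in any library. Of 18 genes of monocytes and border macrophages 7 were listed and tested. Of these 6 were higher, against 4 higher and 2 lower under each of the other scalings. Cd163, a scavenger receptor of border macrophages named after its values were seen, was lower (1.39, 0.719 and 1.12 CPM against 0.613, 0.478 and 0.26 CPM, log2 difference -1.25, SE 0.49, adjusted p = 0.0159). That call was lost without LowDose replicate 1 (adjusted p = 0.0933) and without HighDose replicate 3 (adjusted p = 0.0646).

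Dendritic cell and vessel markers followed. Of 14 dendritic cell genes 8 were listed and 6 tested. Of these 5 were higher (median 2.61) and Cd209a did not pass, and 3 were higher under each of the other scalings. Cd209a, a lectin of monocyte-derived dendritic cells that was named after its values were seen, measured 0.164, 0 and 0 CPM in PBS, 0.548, 0.629 and 0.374 CPM in LowDose and 0.175, 1 and 1.65 CPM in HighDose. Its LowDose libraries all lay above PBS, and HighDose spanned the LowDose range. Irf8, a factor of dendritic cells and microglia, measured 4.97, 5.3 and 5.18 CPM in LowDose and 31.2, 33.4 and 38.7 CPM in HighDose (log2 difference 2.74, SE 0.23, adjusted p = 3.99e-14). Of 20 genes of endothelium and adhesion 8 were listed. All 8 were higher (median 2.21), against 4 higher and 2, 2 and 3 lower under the other scalings. Icam1, the adhesion molecule that leukocytes bind, measured 2.32, 4 and 2.62 CPM against 26.3, 30.3 and 45.9 CPM (log2 difference 3.52, SE 0.27, adjusted p = 1.04e-15), with the doses well apart.

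All 16 tested complement genes were higher, with a median of 2.12 near that of all genes. Under the other scalings 7 were higher and 2, 1 and 5 lower, with medians of 0.30, 0.39 and 0.21. C4b, which marks synapses and debris for removal, measured 13, 14.7 and 16.1 CPM in PBS, 14.3, 26 and 25.7 CPM in LowDose and 197, 358 and 304 CPM in HighDose (log2 difference 3.70, SE 0.26, adjusted p = 5.73e-17). C3, the central component, measured 14, 21.5 and 11.1 CPM in PBS, 11.5, 59.2 and 16.8 CPM in LowDose and 52.8, 93.2 and 66 CPM in HighDose (log2 difference 1.27, SE 0.32, adjusted p = 0.000413). LowDose replicate 2 lay within the HighDose range of C3, the groups overlapped, and the direction turned under all 3 other scalings.

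Astrocyte genes went both ways. All 26 tested genes of reactive astrocytes were higher (median 2.73). Under the other scalings 14, 15 and 12 were higher and 4, 2 and 4 lower, with medians of 0.92, 1.0 and 0.82. The list shares genes with other lists above, among them Cxcl10, its highest member at 8.59, and Gbp2. Its median therefore does not speak for astrocytes alone. Gfap, the intermediate filament of reactive astrocytes, measured 113, 120.1 and 146 CPM in PBS, 100.02, 125 and 168 CPM in LowDose and 374, 453 and 534 CPM in HighDose (log2 difference 1.79, SE 0.23, adjusted p = 2.55e-09), a difference that became -0.00025 with TMM factors and -0.10 with the listed sum. Its HighDose libraries lay above all others. For resting astrocytes 21 of 68 genes were listed, and the list was assembled after values were seen, so its direction and the separation of its dose groups follow in part from that choice and support nothing. Of the 21, all tested, 20 were lower and 1 was higher (median -1.02), and those 20 did not overlap between the doses, beside 6.32% of all tested genes that lay below without overlap. In LowDose the same list lay at a median of -0.17 from PBS.

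Mfge8, a bridging protein that astrocytes secrete for the uptake of dying cells, had the largest fall in CPM among the called genes whose dose groups did not overlap. It measured 129.6, 144 and 135 CPM in PBS, 117, 136 and 142 CPM in LowDose and 77, 58.3 and 32.6 CPM in HighDose (log2 difference -1.24, SE 0.23, adjusted p = 7.65e-06). LowDose overlapped PBS, and the HighDose libraries were all lower and spread widely among themselves. Btbd17, an astrocyte-enriched gene, measured 9.36, 13.4 and 11.8 CPM against 5.16, 4.4 and 2.34 CPM (log2 difference -1.54, SE 0.27, adjusted p = 1.81e-06). Hes5, a target of Notch signalling in astrocytes and progenitors, measured 4.09, 3.69 and 4.49 CPM against 1.84, 1.77 and 0.78 CPM (log2 difference -1.48, SE 0.33, adjusted p = 7.3e-05). Fzd2, a Wnt receptor, and Nkain4 fell by similar amounts, with differences of -1.30 (SE 0.25, adjusted p = 1.02e-05) and -1.21 (SE 0.23, adjusted p = 7.9e-06). For all 5 genes the dose groups were separate, and HighDose replicate 3 was the lowest library. Ntsr2, a neurotensin receptor of astrocytes, measured 55.6, 66.9 and 61.9 CPM against 41.4, 30.6 and 20.1 CPM (log2 difference -1.0, SE 0.23, adjusted p = 0.000108). Grin2c, an NMDA receptor subunit, Rlbp1, a retinoid-binding protein, and Slc7a10, a serine transporter with uncertain counts, were named after their values were seen and differed by -1.07 (SE 0.23, adjusted p = 6.76e-05), -1.14 (SE 0.24, adjusted p = 4.01e-05) and -1.16 (SE 0.24, adjusted p = 3.91e-05). The 1 list member that rose was Slc7a11, the cystine transporter, at 43.9, 26.4 and 30.2 CPM against 66.5, 83 and 114 CPM (log2 difference 1.39, SE 0.23, adjusted p = 9.92e-07), with uncertain counts and the opposite sign under all 3 other scalings.

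Neuronal genes that mark the striatum were also lower at the high dose, and most were below PBS at the low dose too. Among the 21 tested markers of striatal medium spiny neurons 14 were lower in HighDose than in LowDose and 7 did not pass (median -0.63). Under each of the other scalings all 21 were lower, with medians of -2.38, -2.29 and -2.44, so the count and the size of the fall depended on the scaling. Only 2 of the 21 had dose groups that did not overlap. Against PBS, 17 were lower in LowDose (all 21 with the replicate block) and all 21 in HighDose. The markers summed to 1349, 899 and 678 CPM in LowDose and 692, 641 and 552 CPM in HighDose, against 2027 ± 359 CPM in PBS (SD, n = 3). LowDose replicate 1 was the highest of the dose libraries and LowDose replicate 3 lay within the HighDose range. Without LowDose replicate 1 the number of lower calls was 5 in place of 14, and without HighDose replicate 3 it was 9. None of the 15 markers of cortical excitatory neurons was among the listed genes, so the cortical label could not be checked by them.

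Drd2, the dopamine receptor of indirect-pathway neurons, measured 36.3, 43.7 and 29.8 CPM in PBS, 22, 11.7 and 6.47 CPM in LowDose and 8.31, 5.64 and 4.46 CPM in HighDose (log2 difference -1.13, SE 0.29, adjusted p = 0.000391). Its LowDose and HighDose libraries overlapped, and both lay below all PBS libraries. Adora2a, the adenosine receptor of the same neurons, measured 28.1, 12.7 and 6.04 CPM against 11.7, 10.1 and 7.06 CPM (log2 difference -0.70, SE 0.30, adjusted p = 0.0249), and reversed to 0.034 (adjusted p = 0.902) without LowDose replicate 1. Six3, a transcription factor of the striatal lineage, measured 3.46, 1.71 and 0.374 CPM against 0.481, 0.287 and 0.303 CPM (log2 difference -2.37, SE 0.50, adjusted p = 4.39e-05), with a broad LowDose range that met the HighDose range. Gng7, a G protein subunit of striatal signalling, measured 173, 139.99 and 118 CPM against 100.2, 75.9 and 61.1 CPM (log2 difference -0.86, SE 0.22, adjusted p = 0.000506), separate between the doses. Of the cholinergic markers 4 of 9 tested genes were lower, 1 was higher and 4 did not pass. Under each of the other scalings 8 were lower and 0 higher. Chat, the enzyme that makes acetylcholine, measured 2.61, 1.62 and 0.748 CPM against 1.14, 0.191 and 0.477 CPM (log2 difference -1.46, SE 0.48, adjusted p = 0.00433), and Slc10a4, a vesicle protein of cholinergic neurons, measured 1.85, 0.764 and 0.321 CPM against 0.263, 0.144 and 0.13 CPM (log2 difference -2.44, SE 0.59, adjusted p = 0.000232). LowDose replicate 1 was the highest LowDose library for both. Without it, 1 of the 9 cholinergic genes was called lower and Chat was not (adjusted p = 0.0521). How much tissue of each region the libraries held was not tested.

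**Figure D3:**
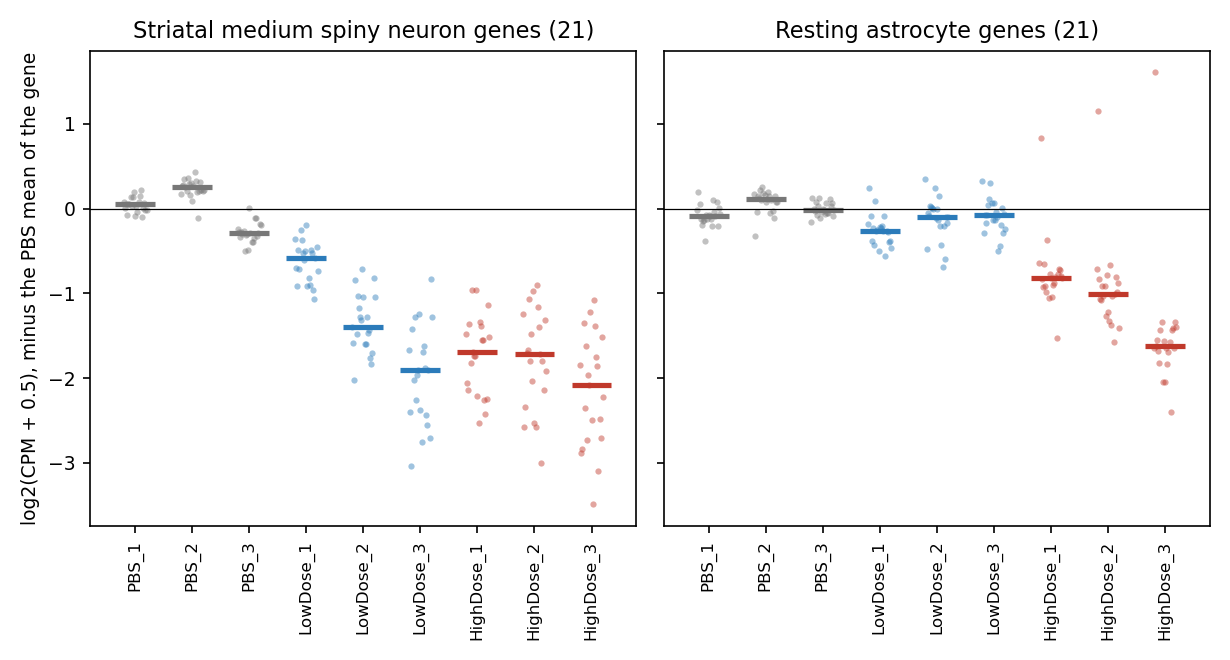
Distance of log2(CPM + 0.5) from the PBS mean (y axis) in each of the 9 libraries (x axis) for 21 striatal medium spiny neuron genes and 21 resting astrocyte genes, with 1 point per gene and a bar at the library's median. The LowDose medians of the striatal list spread from -0.58 to -1.91 and reach the HighDose range of -1.69 to -2.08, whereas the LowDose medians of the astrocyte list (-0.26 to -0.08) stay apart from HighDose (-0.82 to -1.63). The astrocyte list was assembled after its values were seen, so its separation is a description of that choice.

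Of 24 oligodendrocyte and myelin genes 7 were listed, and most of these did not pass the test between the doses. Of 7 tested oligodendrocyte genes 5 did not pass (4 of these were lower without HighDose replicate 1), and Apod, a lipid carrier, and Klk6, a protease, were higher by 2.13 (SE 0.24, adjusted p = 7.24e-11) and 2.43 (SE 0.27, adjusted p = 9.58e-11). The other scalings gave 1, 2 and 1 higher and 5 lower, with medians of -2.03, -1.94 and -2.11, and with the replicate block 2 were higher and 2 lower. Mal, a myelin proteolipid, measured 382, 411 and 466 CPM in PBS, 236, 240.2 and 259 CPM in LowDose and 225, 156 and 193 CPM in HighDose (log2 difference -0.36, SE 0.21, adjusted p = 0.102). All libraries of both doses lay below PBS for Mal, and although the HighDose libraries lay below the LowDose libraries, the difference did not pass the test.

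Genes of cell stress and injury rose, at a median near that of all genes. Of 34 genes of the cell stress list 21 were listed and 20 tested. Of these 19 were higher and 1 did not pass, with a median of 1.72 that turned to -0.10, -0.02 and -0.19 under TMM, size-factor and listed-sum scaling. Atf3, a transcription factor of damaged cells, measured 0.674, 1.03 and 0.855 CPM in LowDose and 26.9, 27.7 and 56.4 CPM in HighDose (log2 difference 5.43, SE 0.32, adjusted p = 1.99e-19). Hmox1, which breaks down haem, measured 6.07, 7.82 and 6.84 CPM against 119, 116 and 239.5 CPM (log2 difference 4.51, SE 0.28, adjusted p = 5.67e-19). HighDose replicate 3 was the highest library for both and the other pair of HighDose libraries lay close together. Eda2r, a p53 target, and Gadd45g, a growth arrest gene, were named after their values were seen and differed by 4.52 (SE 0.37, adjusted p = 8.15e-15) and 3.06 (SE 0.27, adjusted p = 1.02e-13). Cdkn1a (p21), the cell cycle inhibitor, was named likewise and stood in steps, at 15, 20.8 and 17.2 CPM in PBS, 30.4, 35.9 and 42.2 CPM in LowDose and 151, 181 and 278 CPM in HighDose (log2 difference 2.49, SE 0.24, adjusted p = 1.17e-12). It was higher in LowDose than in PBS as well, by 1.03 (adjusted p = 0.00604), with no overlap among the 3 groups.

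Of 20 activity-regulated genes 6 were listed and tested. They gave 5 higher and 1 lower, with a median of 1.30 that turned to -0.51, -0.43 and -0.60 under the other scalings. Fosl1 had 2 rounded counts over the LowDose group and 695 over HighDose, a 336-fold ratio with a 95% exact counting interval of 92.7 to 2782, and its counts were not whole in 4 libraries. Egr2, a zinc-finger factor, differed by 1.71 (SE 0.24, adjusted p = 1.92e-08) and turned to the lower side under all 3 other scalings. Fosb, named after its values were seen, measured 11.4, 13.3 and 12.1 CPM in PBS, 26.4, 25.7 and 33.4 CPM in LowDose and 27.5, 26.4 and 85.5 CPM in HighDose (log2 difference 0.71, SE 0.27, adjusted p = 0.0148). HighDose replicate 3 alone carried that call: without it the difference was -0.081 (adjusted p = 0.67), and it was also of the opposite sign under all 3 other scalings. In LowDose, Fosb was above PBS by 1.21 (adjusted p = 0.00824). Npas4, a factor induced by neuronal activity, ran the other way, at 14.8, 21.6 and 26.2 CPM in PBS, 32.3, 37.5 and 33 CPM in LowDose and 16.9, 17 and 13.1 CPM in HighDose (log2 difference -1.13, SE 0.23, adjusted p = 1.87e-05). Its LowDose libraries were above those of both other groups, and neither dose differed from PBS by the test (adjusted p = 0.0772 for LowDose and 0.0743 for HighDose), although LowDose passed with the replicate block (adjusted p = 0.0296).

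Cell division and matrix genes were higher too, by amounts near the median of all genes. Of 35 cell cycle genes 17 were listed, and all 17 were higher (median 1.75, which became -0.01, 0.07 and -0.10 under TMM, size-factor and listed-sum scaling). Top2a, the topoisomerase of dividing cells, measured 3.65, 2.52 and 5.03 CPM in PBS, 1.73, 1.57 and 2.62 CPM in LowDose and 6.61, 9.18 and 10.3 CPM in HighDose (log2 difference 2.14, SE 0.31, adjusted p = 6.07e-08). HighDose was above PBS and LowDose did not differ from it by the test (-0.93, adjusted p = 0.112). The mitotic genes Prc1, a spindle protein with uncertain counts, and Kif11, a spindle motor, belonged to a small group in which LowDose stood apart and HighDose lay near PBS, and both differences turned sign under the other scalings. Prc1 measured 2.02, 1.85 and 2.79 CPM in PBS, 0.882, 1.11 and 0.993 CPM in LowDose and 2.23, 2.57 and 2.68 CPM in HighDose (log2 difference 1.31, SE 0.38, adjusted p = 0.00148). Of 36 genes of the extracellular matrix and remodelling list 19 were listed, and all 19 were higher (median 1.84, which became 0.03, 0.11 and -0.06 under the same scalings). The members with the smallest p, Itgal and Itgax, are integrin chains of leukocytes and not matrix genes. Of 25 Notch and retinoid genes 10 were listed. Of these 3 were higher, 5 lower and 2 did not pass (median -0.69, with 3 lower without LowDose replicate 1). Within that last list Aldh1a2, an enzyme that makes retinoic acid, and Dll1, a Notch ligand, differed by 1.55 (SE 0.25, adjusted p = 6.27e-07) and 1.40 (SE 0.29, adjusted p = 2.55e-05) and turned to the lower side under all 3 other scalings, whereas Aldh1a3, a related retinoic acid enzyme, was lower (-1.37 (SE 0.39, adjusted p = 0.00123)).

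Some genes had their lowest level at the low dose. For 79 of 1216 genes that met the mean CPM and overlap criteria, all HighDose libraries lay above all PBS libraries and all LowDose libraries below them. No gene showed the reverse, which only genes lower in HighDose could show. Those were few, as 100 of all 1583 tested genes lay below without overlap, so that absence says little. Whether 79 exceeds what the spread between libraries gives was not tested. Of the 1394 raised genes, 93 had LowDose above all PBS libraries and 115 below. Among the 112 lower genes the counts were 5 above and 47 below, and among the 77 that did not pass 7 and 45. LowDose below PBS was thus no more frequent among the raised genes than among the rest of the list. By the test 5 of the 1394 were higher and 4 lower in LowDose than in PBS, or 7 and 6 with the replicate block. Among the 79 were Irf7, Tgtp1 and Oas1b, an enzyme that responds to double-stranded RNA, which measured 0.273, 0.387 and 0.922 CPM in PBS, 0.169, 0.225 and 0.214 CPM in LowDose and 28.5, 45.1 and 58.1 CPM in HighDose (log2 difference 7.73, SE 0.39, adjusted p = 5.84e-22). In LowDose, Oas1b differed from PBS by -1.40, which did not pass (adjusted p = 0.173). Ecel1, a neuronal endopeptidase, was lowest in LowDose, at 6.27, 7.99 and 5.72 CPM in PBS, 3.71, 2.61 and 1.44 CPM in LowDose and 4.42, 4.35 and 6.5 CPM in HighDose (log2 difference 0.96, SE 0.31, adjusted p = 0.00401), and turned to the lower side under all 3 other scalings. Its difference between LowDose and PBS was -1.35 (adjusted p = 0.00783), and the call between the doses was lost without LowDose replicate 3 (adjusted p = 0.0506).

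The largest list medians were those of DNA sensing (6.18), the GBP and IRG GTPases (6.14) and the antiviral effectors (5.88), followed by the cytotoxic list, chemokines and T cell markers. The DNA sensing median fell among the interferon-inducible PYHIN genes of that list, whereas Cgas (2.55) and Sting1 (2.27) lay nearer to the median of all tested genes. NF-kB and its feedback genes, with 13 of 13 tested members higher, had a median of 1.70 that turned to -0.09, -0.01 and -0.19 under TMM, size-factor and listed-sum scaling. Among the 122 tested genes that the deposited annotation marks as transcription factors, 100 were higher and 13 lower, with a median of 1.31, beside 88.1% higher and 7.08% lower of all tested genes. The higher factors included Irf7 and Atf3, and the lower ones Six3, Hes5 and Npas4.

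**Figure D4:**
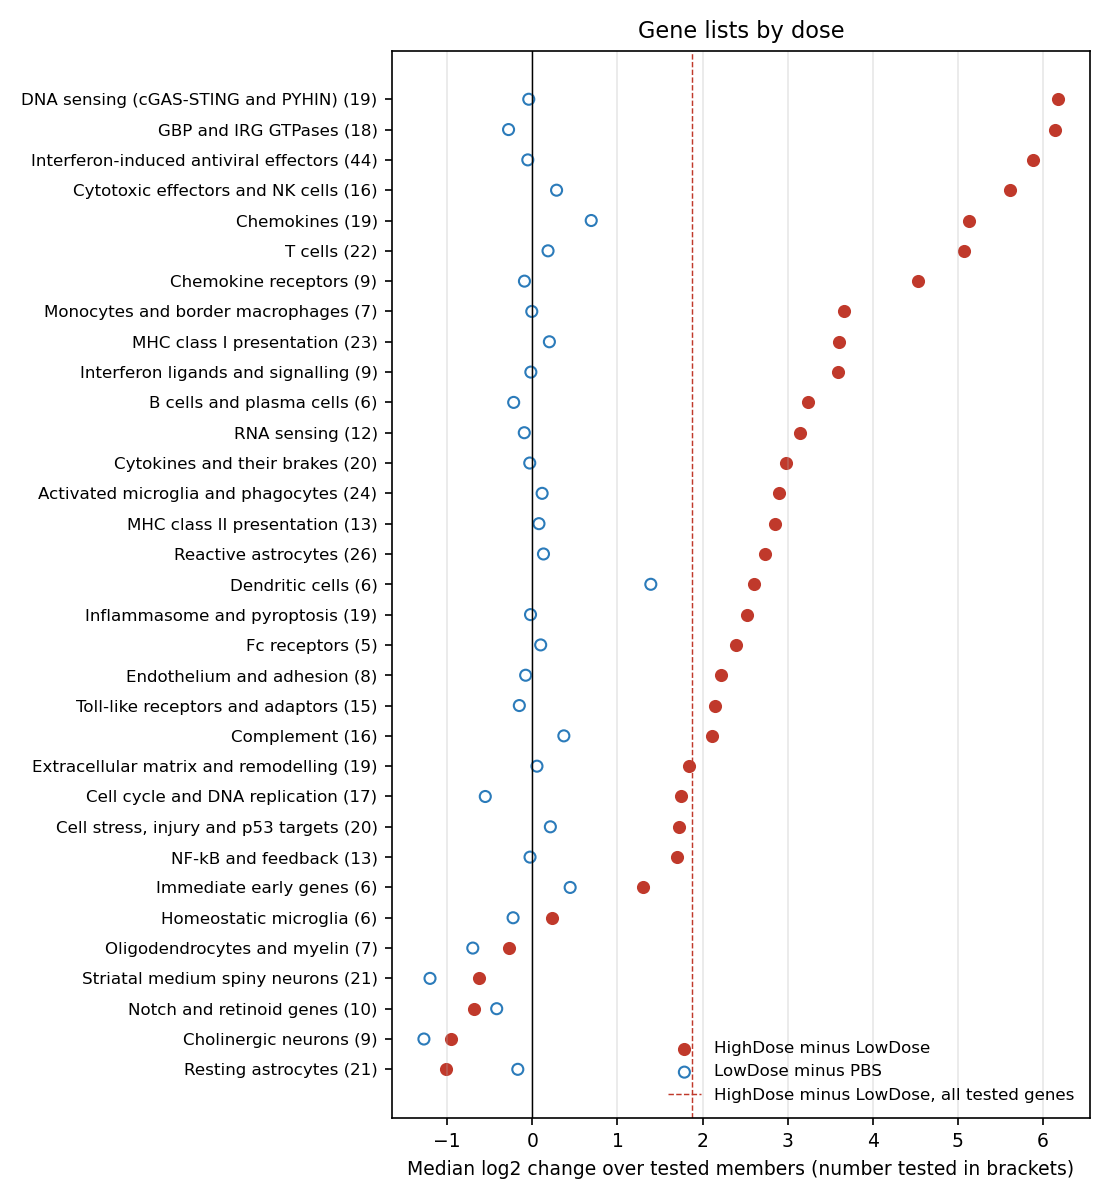
Median log2 difference of each gene list with at least 5 tested members, for HighDose against LowDose (filled) and LowDose against PBS (open), with a dashed line at the HighDose to LowDose median of all tested genes. The antiviral effectors, the GBP and IRG GTPases and the DNA sensing genes lie at 5.88, 6.14 and 6.18 for HighDose against LowDose, and their LowDose to PBS medians are -0.05, -0.28 and -0.04.

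Promoters with the ISRE letters were more frequent the larger the difference. The letters were found in 3.99% of all promoters in the reference table (1079 of 27025) and in 11.4% of the listed genes with a promoter there (152 of 1328). By size of the rise, the share was 4.55% for log2 differences under 1 (4 of 88), 7.39% from 1 to 2 (32 of 433), 12.2% from 2 to 4 (41 of 337), 19.0% from 4 to 6 (27 of 142) and 35.6% from 6 up (36 of 101). Of the 83 lower genes with a promoter, 0 held the letters. By list the share was 90.9% of the GBP and IRG GTPases (10 of 11), 52.8% of the antiviral effectors (19 of 36) and 50% of the DNA sensing genes (8 of 16), and 0 of 13 for T cell markers. No match says only that these letters are not in that window.

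The HighDose libraries differed among themselves. Of the 1394 higher genes 1194 were lowest in HighDose replicate 1 and 1089 highest in replicate 3. Over all 1394 the median log2 difference was 0.37 between replicates 2 and 1 and 0.23 between replicates 3 and 2. For the antiviral effectors these medians were 0.61 and 0.28, and for the T cell markers it was 0.58 and -0.02. The cell stress genes differed by 0.04 and 0.65, all 19 of them highest in replicate 3, and the activity-regulated genes by 0.06 and 0.87. The resting astrocyte genes differed by -0.15 and -0.59, with HighDose replicate 3 the lowest. The share of each library's total that fell on listed genes was 3.90%, 5.21% and 6.04% in HighDose replicates 1, 2 and 3.

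**Figure D5:**
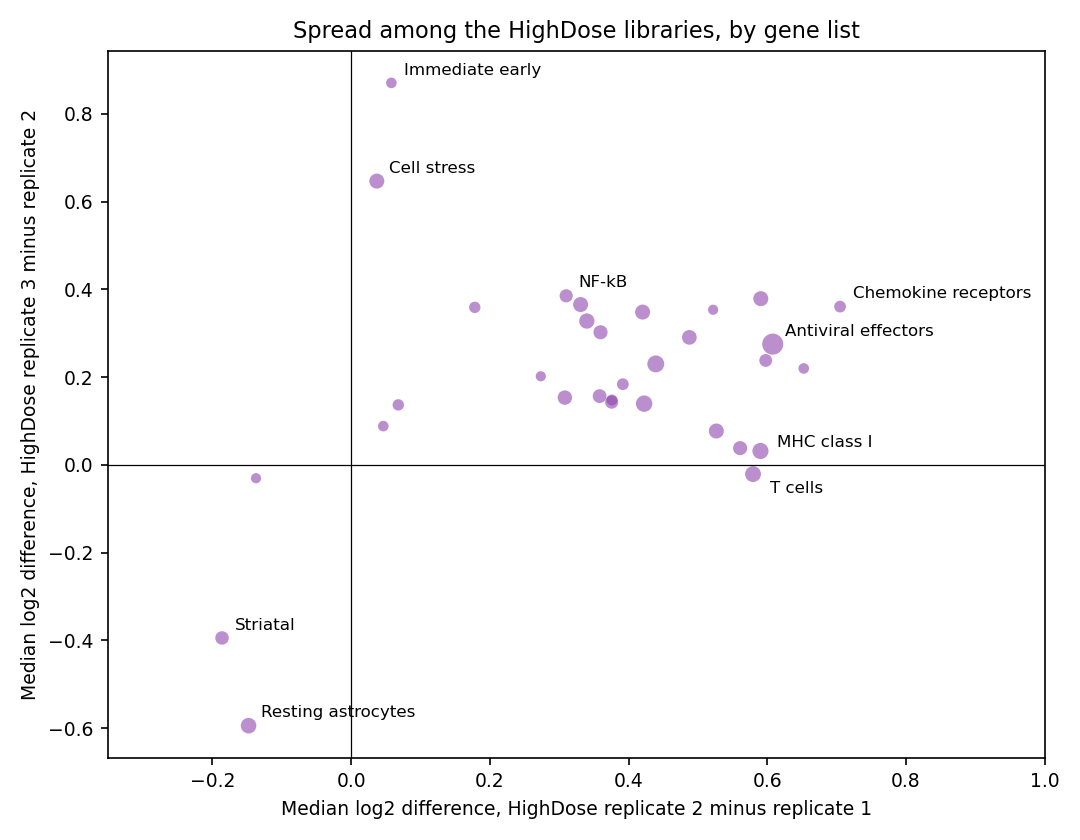
Median log2 difference between HighDose replicates 2 and 1 (x axis) and between replicates 3 and 2 (y axis) for the members of each gene list that were called, 1 point per list with an area that follows the number of genes. Antiviral effectors lie at 0.61 and 0.28, whereas cell stress genes lie at 0.04 and 0.65 and resting astrocyte genes at -0.15 and -0.59.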

How the data were processed

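Bulk RNA sequencing of total RNA was available for 9 mouse libraries in 3 groups of 3 (PBS, LowDose and HighDose). The table deposited by the authors holds estimated counts, some of them not whole, and FPKM for 1710 genes, per the file headers, and the counts were rounded before testing. The build is mm10, and edgeR and DESeq2 are named without a role, per the submitters' processing notes. The aligner, the counter and the criterion for listing a gene were not stated in any source used here. FPKM values were used as the authors deposited them, for the recovery of library totals and for 2 alternatives.

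Each library's total was recovered as count divided by FPKM and length, over single-transcript genes of GENCODE M21 (FPKM of at least 5, count of at least 100, length of at least 600), from 23 to 68 genes per library with a scatter of 0.0113% to 0.0448%. Totals were 18344100, 20650500 and 21688200 counts in PBS, 23725600, 22244400 and 18715600 in LowDose, and 22856500, 20903900 and 23079500 in HighDose, so that 3 counts equal 0.126 to 0.164 CPM. One edgeR (4.0.16, R 4.3.3) quasi-likelihood model of the 3 groups, with these totals as library sizes and no further scaling, was fitted to the 1583 genes that passed filterByExpr (minimum count 10). Adjusted p under 0.05 (Benjamini-Hochberg) was the threshold. Approximate SEs were obtained as the absolute log2 difference over the root of the F statistic. The procedure was tested on simulated data in which about as many genes were raised as lowered. It recovered 95% and 64.1% of log2 changes of -2 and -1, and 52.3% and 91.8% of changes of 1 and 2. Of the unchanged genes it called 0.47%. Because these data lean to higher genes, that test does not speak to the choice of scaling. Of the 1710 identifiers 1704 were found in GENCODE M21, and 1328 genes matched a RefSeq promoter.

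Members and gene lists were chosen with earlier results of these data known, and the resting astrocyte list and the genes marked so in the text after their values were seen. The other named genes follow a rule: the 8 highest and 8 lowest log2 differences without overlap and with mean CPM of at least 1, the 5 largest rises and falls in CPM, the 2 smallest p of each list with at least 5 tested genes, the 5 most extreme genes with LowDose on the far side of PBS or apart from both other groups, and 31 genes fixed by name. Not every gene the rule names is described. Same-numbered PBS and LowDose libraries correlated weakly in their deviations from the group means, at 0.246, 0.165 and 0.137. Whether the numbers pair the samples is not known: this is a hint from the data and not from the labels. A replicate block in the comparisons with PBS was added after that was seen. It was fitted over all 9 libraries, HighDose included, and its p-values lend no independent support. Alternatives were TMM (limma 3.58.1 for voom), DESeq2 (1.42.0) size factors and Wald test, the listed sum, other filters, limma on log2(FPKM + 1) and log2(FPKM + 0.1), only the dose libraries, a replicate block, and each library left out. Intervals and floors cover counting error only.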

Additional observations from a re-analysis of the deposited data

How the results depend on the processing

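Scaling decided the balance of the calls. The count of higher genes was 1394 with recovered totals and 554, 576 and 524 with TMM factors, DESeq2 size factors and the listed sum, and the count of lower genes was 112 against 491, 445 and 524. A 2-fold threshold left 57 lower genes. Leaving out each library gave 1373 to 1456 higher and 90 to 119 lower genes. The other filters, tests and sample sets gave 1247 to 1509 higher and 94 to 114 lower genes.

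Under TMM, size-factor and listed-sum scaling, in this order, the sign turned for Olfml3 (-0.25, -0.16, -0.33), Selplg (-0.67, -0.58, -0.76), Tmem119 (-0.65, -0.56, -0.73), Ecel1 (-0.85, -0.76, -0.92), Egr2 (-0.12, -0.029, -0.20), Aldh1a2 (-0.29, -0.20, -0.37), Dll1 (-0.41, -0.33, -0.50), Kcnj13 (-0.36, -0.28, -0.45), Prc1 (-0.47, -0.38, -0.56), Kif11 (-0.71, -0.62, -0.79), Dnase2a (-0.83, -0.75, -0.92), Cd68 (-0.76, -0.68, -0.86), C3 (-0.49, -0.41, -0.61), Fosb (-1.16, -1.08, -1.26) and Slc7a11 (-0.44, -0.35, -0.51). For Gfap it turned with TMM (-0.00025) and the listed sum (-0.10). These scalings assume that the listed genes do not differ on balance; the cause of the change was not tested further. Without LowDose replicate 1, Adora2a was 0.034, and Fosb ran from -0.081 without HighDose replicate 3 to 0.987 without HighDose replicate 2. Adora2a was also lost under DESeq2 (adjusted p = 0.201), voom (0.58) and both limma fits on FPKM. C3 was at adjusted p = 0.0508 under DESeq2. Voom with sample weights and both FPKM fits lost Fosb. Mal passed under the replicate block, under voom and without HighDose replicate 1.

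The replicate block gave 1395 higher and 120 lower genes, of which 1393 and 112 were called without it. Same-numbered HighDose and LowDose libraries correlated at 0.183, 0.014 and 0.083 in their deviations, which does not settle whether the numbers pair these libraries. Against PBS, the block gave HighDose 1368 higher and 169 lower genes and LowDose 12 and 50.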
